A study of Sus scrofa with 24 samples.

Results

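Preadipocytes of the pig were compared between 2 fat depots, with attention to the differences that were present on each of the 4 days of adipogenic culture. Preadipocytes are fibroblast-like precursors that can be driven to store lipid. The cells came from Yorkshire piglets of 6 days of age. They were isolated either from the subcutaneous fat of the back (BF, labelled subcutaneous adipocytes) or from tissue of the longissimus dorsi muscle (IMF, labelled intramuscular adipocytes). RNA was taken on days 0, 2, 4 and 8 with 3 replicates per depot and day, which gave 12 BF and 12 IMF libraries, all 24 of the mRNA libraries used here. After growth to near confluence, both depots received the same induction medium with IBMX (a phosphodiesterase inhibitor), dexamethasone (a glucocorticoid) and insulin, then insulin alone, then growth medium. According to the study's methods, the muscle was digested for longer and with a higher concentration of collagenase than the back fat, so depot and isolation cannot be told apart. The methods also name 3 piglets as the source of the cells, whereas the labels tie no library to an animal, and the p-values therefore measure only the spread between these libraries.

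The depot effect of a gene was its mean difference, IMF minus BF, in log2(FPKM + 1) over all 24 libraries with day as a second, additive term. FPKM is a level scaled to transcript length and library size. The fit covered the 16135 of 25462 genes whose FPKM summed to over 1, and a gene was called at a limma adjusted p under 0.01 with an absolute difference of at least 1. Calls were made for 551 genes, 3.41% of those tested, of which 341 (2.11%) were higher in IMF and 210 (1.30%) were lower. Among them, 306 genes (1.90% of those tested) had 3 IMF libraries all above or all below the 3 BF libraries on every day, in the same direction: 218 were higher in IMF (1.35%) and 88 were lower (0.545%). These 306 genes, called the persistent genes here, were chosen by their values, so their counts are a description and no test was run on the choice. A symbol was available for 264 of them. Counts of called genes in the gene lists below stand against the 2.11% higher and 1.30% lower of all tested genes.

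Fat depots are known to hold progenitors that keep a memory of their place in the body. HOX genes and other patterning transcription factors, laid down in the embryo, stay on in cultured fibroblasts and preadipocytes according to position. Intramuscular progenitors lie among muscle fibres beside tendon-like connective tissue, and fibroblastic cells in culture can also switch to a contractile state with smooth muscle actin or to an inflammatory state with NF-kappa-B target genes.

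The regulatory sequence before the start of a few genes is shown as examples, for 2 contractile genes higher in IMF (MYL9, a myosin light chain, effect 1.71, and CNN2, a calponin, effect 1.25) and 1 inflammatory gene lower in IMF (CXCL2, effect -3.31). Each stretch is the 250 bases before the RefSeq gene start in Sscrofa11.1, the build of the table, read 5′ to 3′ on the gene's strand. In the contractile genes, capitals mark the CArG box, the site known to bind serum response factor. It was found, on either strand, in this stretch of 3 of the 13 contractile genes called, MYL9 and CNN2 shown here among them, and of 123 of 10812 tested genes with such a sequence (1.14%). Of all 25 contractile genes tested, 4 had it, so it was not limited to the called ones. Among persistent genes with such a sequence it was found in 3 of 187 higher in IMF and in 1 of 71 lower. Both are near the share of all tested genes.
MYL9 (chr17:39787915-39788164, plus strand): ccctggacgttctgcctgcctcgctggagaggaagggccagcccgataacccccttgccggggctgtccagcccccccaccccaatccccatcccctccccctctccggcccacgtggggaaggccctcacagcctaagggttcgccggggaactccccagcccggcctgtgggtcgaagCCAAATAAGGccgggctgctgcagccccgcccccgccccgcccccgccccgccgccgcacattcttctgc
CNN2 (chr2:77385595-77385844, minus strand): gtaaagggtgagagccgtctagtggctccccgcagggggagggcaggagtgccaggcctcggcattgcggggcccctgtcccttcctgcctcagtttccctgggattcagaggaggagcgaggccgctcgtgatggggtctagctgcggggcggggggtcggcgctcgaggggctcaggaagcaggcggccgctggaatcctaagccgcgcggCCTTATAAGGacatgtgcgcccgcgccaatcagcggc

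Capitals in the next sequence mark the NF-kappa-B motif, searched by its standard consensus on both strands. CXCL2 had 2 overlapping matches, and the stretch of MYL9 above holds 3, which are not marked there. The motif was present in 13 of 71 persistent genes lower in IMF (18.3%), in 18 of 187 higher in IMF (9.63%), in 4 of the 13 called contractile genes, all higher in IMF (30.8%), and in 1420 of the 10812 genes (13.1%). A match is a description of the letters and does not show a site in use.
CXCL2 (chr8:70157003-70157252, plus strand): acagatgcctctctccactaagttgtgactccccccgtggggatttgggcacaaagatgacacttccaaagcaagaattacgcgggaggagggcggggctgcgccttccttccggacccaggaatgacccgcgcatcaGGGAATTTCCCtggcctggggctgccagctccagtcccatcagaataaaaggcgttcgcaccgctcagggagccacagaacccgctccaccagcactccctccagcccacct

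Library totals ran from 307967 to 385768 FPKM, with 9985 to 10858 genes at 1 FPKM or more, and the table holds no read counts, so the depth behind a value is not known from it. Replicates correlated across genes at 0.987 to 0.994 in the 4 IMF groups and at 0.962 to 0.994 in the BF groups, with the lowest values in BF-2d (0.962 to 0.976) and BF-4d (0.965 to 0.991). The library with the lowest mean correlation to its replicates was BF-2d replicate 3 (0.967), followed by BF-4d replicate 3 (0.968) and BF-2d replicate 2 (0.969). Without BF-2d replicate 3 the calls numbered 626, and without BF-4d replicate 3 they numbered 481. No library had values identical to those of another. The median depot effect over all tested genes was 0.05, and the split of the calls moved with the scaling: 61.9% were higher in IMF as deposited, against 49.2% of 518 after median ratio scaling and 49.9% of 517 after quantile normalization. The persistent genes were split 218 to 88 as deposited, 160 to 124 after median ratio scaling and 159 to 121 after quantile normalization, with 248 and 245 of the 306 genes shared.

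Marker genes were checked against the labels. Although the labels name adipocytes, ADIPOQ (the adipokine adiponectin) reached at most 0.230 FPKM in BF and was listed at 0 in all 12 IMF libraries, and PLIN1, the coat protein of lipid droplets, stayed at or below 0.0773 FPKM. Of the 8 adipocyte markers, 3 stayed under 1 FPKM throughout and 3 were called lower in IMF, and their sum was 9.16 to 622 FPKM in BF and 2.79 to 143 in IMF. The 9 stromal fibroblast markers in the table summed to between 6849 and 18520 FPKM in BF and between 11310 and 21370 in IMF. Of the 16 myogenic markers, 4 were listed at 0 throughout and 14 stayed under 1 FPKM, although DES, the muscle intermediate filament desmin, was called higher in IMF (BF 0 to 4.88 FPKM, median 0.0990; IMF 1.27 to 45.3, median 7.28). The myogenic sum was 0.268 to 5.35 FPKM in BF and 2.10 to 47.5 in IMF. The Y-linked genes EIF1AY and KDM5D differed by less than the call in either direction. Tendon markers summed to 383 to 1160 FPKM in BF and 964 to 2088 in IMF, with 3 of 6 called higher in IMF, and pericyte and smooth muscle markers to 21.9 to 1685 and 272 to 2234, with 3 of 9 called higher. Whether other cells contributed to the depot differences was not tested, and in bulk RNA fewer cells of a type and less RNA per cell cannot be told apart.

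**Figure D1:**
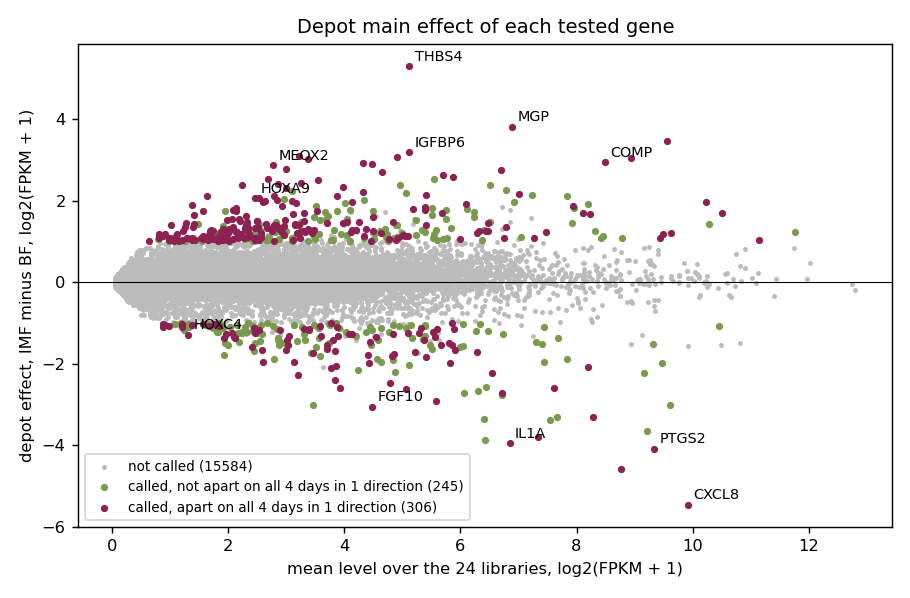
Each point is a tested gene, with its mean level over the 24 libraries (x axis, log2(FPKM + 1)) against its depot effect (y axis, IMF minus BF). The 306 called genes apart on all 4 days in 1 direction are purple, the 245 other called genes are green, and the rest are grey; THBS4 at the top (5.30) and CXCL8 at the bottom (-5.46) mark the extremes among the named genes.

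The largest effect of a named gene higher in IMF belonged to THBS4, a thrombospondin of tendon and muscle matrix (chromosome 2, 88729531 to 88780759 in Sscrofa11.1). Its FPKM in BF was 0.0826, 0.170 and 0.422 on day 0, 0.539, 0.318 and 0.358 on day 2, 0.383, 0.625 and 0.268 on day 4, and 0.572, 0.826 and 0.632 on day 8. In IMF it was 18.5, 19.7 and 20.4 on day 0, 49.2, 46.9 and 46.4 on day 2, 78.3, 84.9 and 81.7 on day 4, and 118, 112 and 128 on day 8. THBS4 was therefore under 1 FPKM in every BF library and above 18 in every IMF library, with a depot effect of 5.30 (SE 0.18, limma adjusted p = 1.33e-15). COMP, the thrombospondin of cartilage and tendon, behaved differently: BF rose from 3.29, 3.59 and 3.16 FPKM on day 0 to 427, 492 and 116 on day 2, where IMF held 591, 724 and 555. On day 8 the COMP levels were 37.2, 59.6 and 43.9 in BF and 1035, 875 and 1078 in IMF. The groups did not overlap on any day, yet the IMF minus BF difference went from 4.96 on day 0 to 1.09 on day 2 and back to 4.40 on day 8. THBS3, another family member, was higher in IMF by 1.98 (SE 0.15). In the list of thrombospondins and tendon or cartilage matrix, 4 of 22 tested genes were called higher and 0 lower, against 7 and 1 without day 8 and 6 and 0 without day 0.

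Elastic fibre and matricellular genes were called higher in IMF in 14 of 45 cases and lower in 0. The count higher was 11 and 12 after median ratio scaling and quantile normalization, and it was 9 without day 4, 10 without day 8 and 18 without day 0, with 0 lower in each. Over the 4 days the list had a median of 0.53 against 0.05 over all tested genes. MGP, the calcification inhibitor matrix Gla protein, had 123, 135 and 160 FPKM in BF on day 0 against 174, 239 and 208 in IMF. By day 4 it had fallen to 2.61, 7.42 and 1.73 FPKM in BF and stood at 297, 314 and 305 in IMF, and the depot effect over the 4 days was 3.82 (SE 0.50, limma adjusted p = 4.72e-06). TNXB, which encodes the matrix protein tenascin-X, ranged from 0.155 to 2.32 FPKM over the 12 BF libraries (median 0.663) and from 2.32 to 18.7 over the 12 IMF libraries (median 10.1), an effect of 2.52 (SE 0.15). FN1, fibronectin, was already abundant in both depots, with 577 to 2084 FPKM in BF (median 1560) and 2239 to 3659 in IMF (median 3065), so that even here the 12 libraries of each depot stayed apart at an effect of 1.05 (SE 0.17, limma adjusted p = 7.17e-05). Microfibril gene MFAP5 (effect 2.54) overlapped on day 0.

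Of the collagen chains, 5 of 26 were called higher in IMF and 1 lower, against 3 and 0 without day 4, 5 and 2 without day 8 and 7 and 3 without day 0. COL8A1, a short-chain collagen of vessel walls and other tissues, had 1.39 to 11.09 FPKM in BF (median 5.26) and 15.7 to 76.8 in IMF (median 22.1), and its difference was 2.15, 2.11, 1.86 and 2.76 on days 0, 2, 4 and 8. COL11A1, a fibrillar chain, began at 29.1, 33.0 and 30.6 FPKM in BF against 39.8, 52.4 and 37.0 in IMF and had fallen by day 2 to 2.15, 1.35 and 5.26 in BF, while IMF held 46.6, 39.7 and 49.3. The small leucine-rich proteoglycans, which bind collagen fibrils, were called higher in IMF in 5 of 14 cases, in 4 and 3 after median ratio scaling and quantile normalization, and in 3 without day 2 or day 4. Among these, BGN (biglycan) was apart in all libraries at 208 to 835 FPKM in BF and 871 to 1362 in IMF, whereas ECM2, OGN and ASPN overlapped on at least 1 day, and the call of ASPN (1.81) was lost in 25 of 39 alternatives, most of them with 1 library left out. Of 41 matrix proteases and their inhibitors, 5 were called lower in IMF and 1 higher, a direction that did not hold without day 4 (1 lower and 2 higher) or day 8 (4 and 4). The counts lower and higher were 2 and 1 without day 2 and 5 and 3 without day 0. The list median was -0.10, none of the 5 called lower over all days was among the persistent genes, and the 3 members apart on every day were higher in IMF: MMP28 (1.36, the 1 called), ADAMTS8 (0.27) and MMP17 (0.24). Among those called lower MMP1, an interstitial collagenase, had the largest effect at -3.01 (SE 0.70), which was -1.71 without day 4 and -2.92 without day 8 and not called in either. Without day 4 BGN also lost its call (0.97).

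**Figure D2:**
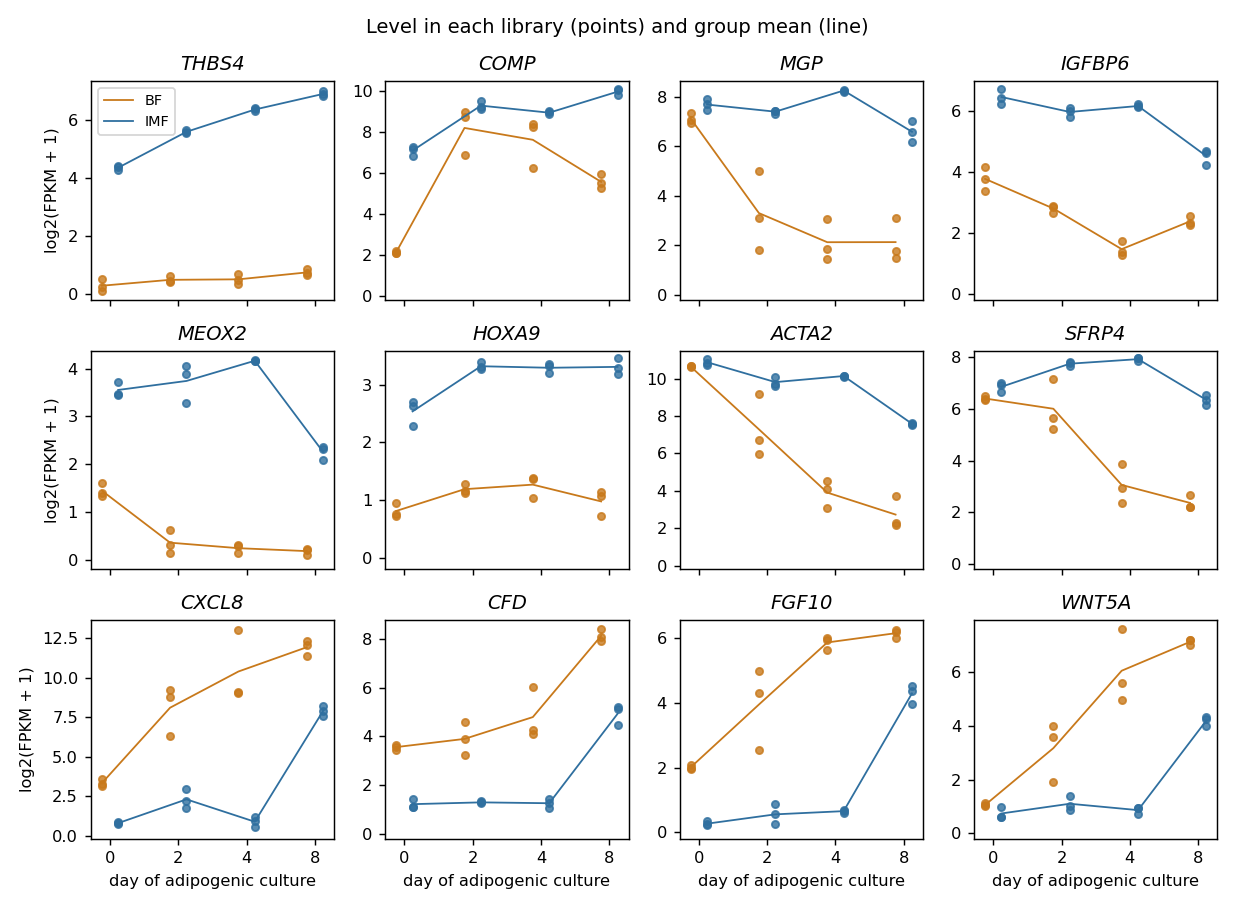
FPKM of 12 named genes in each library on a log2(FPKM + 1) axis, by depot (BF orange, IMF blue) and day (x axis, days 0, 2, 4 and 8 drawn at equal steps), with lines through the group means of 3 libraries. THBS4 and HOXA9 keep the depots apart by at least 4.08 and 1.73 on each day, MGP, ACTA2 and SFRP4 start close together and part as BF falls, and CXCL8, FGF10 and WNT5A rise in BF before IMF rises on day 8.

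The contractile and myofibroblast list had the highest share of calls of any list of 10 or more tested genes, 13 of 25 higher in IMF (52.0%) and 0 lower, against 2.11% of all tested genes. With BF-2d replicate 3 or any 1 day left out, 12 to 15 were higher and 0 lower, and after either rescaling 13 were. The median effect was 1.25. ACTA2, smooth muscle actin, had 1550, 1609 and 1641 FPKM in BF on day 0 and 1698, 1841 and 2128 in IMF, a difference of 0.23 (SE 0.55). On day 2 BF held 61.2, 102 and 588 FPKM, with replicate 3 the highest, and IMF 848, 786 and 1086. On day 4 BF held 16.2, 22.1 and 7.38 FPKM and IMF 1104, 1129 and 1143. ACTA2 thus counted as persistent although the depots were nearly level on day 0, and its effect of 3.46 (SE 0.55, limma adjusted p = 4.52e-05) came from days 2, 4 and 8. TAGLN, the actin-binding protein transgelin, went from 691, 727 and 742 FPKM on day 0 to 14.4, 9.62 and 10.7 on day 8 in BF. In IMF it went from 1078, 1093 and 1379 FPKM to 282, 245 and 377. CNN1, calponin, and SYNPO2, an actin-binding protein of Z discs, passed both thresholds on each day taken alone: SYNPO2 had 3.56, 4.47 and 2.39 FPKM in BF on day 0 and 27.7, 31.1 and 22.0 in IMF, a difference of 2.65. MYLK, myosin light chain kinase, and ACTG2, the enteric smooth muscle actin, had effects of 3.08 and 2.62. Over the list the median difference was 0.31 on day 0, 1.25 on day 2, 1.91 on day 4 and 1.05 on day 8.

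HOX genes were tested for 30 members, of which 5 were called higher in IMF (HOXA5, HOXA7, HOXA9, HOXA10 and HOXC9) and 1 lower (HOXC4); after either rescaling the counts were 4 and 1. Without the fold threshold, 8 HOX genes had all IMF libraries above BF on every day and 2 had them below, together 10 of 30. Among all tested genes, 4.28% lay above on every day and 1.23% below, 5.51% in either direction. HOXA9 (chromosome 18, 45404594 to 45411512) ranged from 0.642 to 1.62 FPKM in BF (median 1.14) and from 3.85 to 9.97 in IMF (median 8.71). Its difference was 1.73, 2.13, 2.03 and 2.33 on the 4 days, with a depot effect of 2.06 (SE 0.08, limma adjusted p = 1.98e-14). HOXA5 had 0.821 to 2.49 FPKM in BF (median 1.51) and 5.44 to 14.6 in IMF (median 10.7), an effect of 2.11 (SE 0.11). HOXA10 was almost silent in BF, at 0 to 0.171 FPKM, and stood at 1.16 to 3.68 in IMF. Below the fold threshold in the same direction were HOXC8 (0.98), HOXA11 (0.95) and HOXC10 (0.67), in each of which the 12 IMF libraries lay above the 12 BF libraries on every day.

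Within the HOXC cluster the genes that lay apart did not share a direction. HOXC4 (chromosome 5, 19250411 to 19268267) was lower in IMF, the reverse of HOXC8, HOXC9 and HOXC10. It had 1.55, 1.93 and 1.94 FPKM in BF on day 0 and 3.51, 3.34 and 3.38 on day 8. In IMF it had 0.513, 0.390 and 0.304 FPKM on day 0 and 0.593, 0.243 and 0.472 on day 8. All 12 BF libraries exceeded all 12 IMF libraries, with an effect of -1.29 (SE 0.07, limma adjusted p = 5.98e-12). HOXB5 also lay lower in IMF without overlap (BF 0.587 to 1.68 FPKM, IMF 0.0485 to 0.227), at an effect of -0.85 that did not reach the fold threshold. Of the 30 tested HOX genes, the 2 that lay lower in IMF on every day were thus HOXC4 and HOXB5. The 8 that lay higher were HOXA5 and genes numbered 7 and above. The others did not lie apart on every day in 1 direction, and a relation to gene number was not tested.

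**Figure D3:**
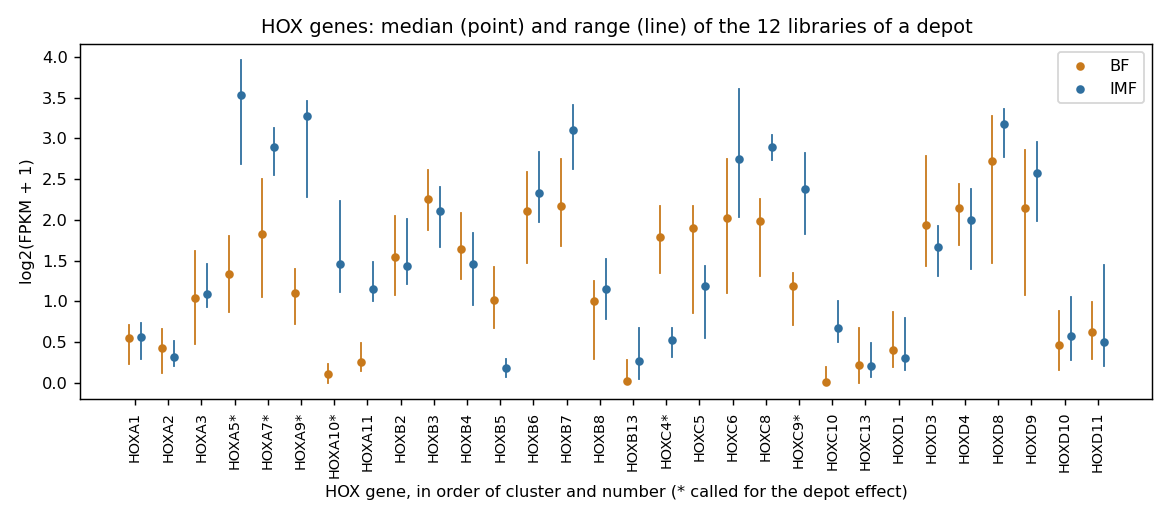
Levels of the 30 tested HOX genes in order of cluster and number, on a log2(FPKM + 1) axis, with the median of 12 libraries as a point and their range as a line (BF orange, IMF blue). The ranges of HOXA5, HOXA9, HOXA10 and HOXC9 in IMF lie above those of BF, and the range of HOXC4 (BF 1.55 to 3.51 FPKM, IMF 0.243 to 0.593) lies the other way; asterisks mark the 6 called genes.

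Other patterning transcription factors were called in 6 of 73 cases, 5 higher in IMF and 1 lower. The split was 5 and 3 after median ratio scaling, 4 and 3 after quantile normalization, 6 and 5 without day 8, 7 and 3 without day 0, 4 and 2 without day 2, and 5 and 2 without BF-2d replicate 3. Of the 73, 9 lay higher in IMF on every day and 7 lower, against 4.28% and 1.23% of all tested genes. MEOX2, a homeobox factor of the somites and limb muscle, had 2.05, 1.54 and 1.62 FPKM in BF on day 0 and 9.975, 12.28 and 10.16 in IMF. By day 4 it was at 0.235, 0.212 and 0.104 FPKM in BF and at 16.8, 17.0 and 17.1 in IMF, and its depot effect of 2.87 (SE 0.19, limma adjusted p = 1.39e-10) kept all 12 libraries apart. EBF2, a factor of adipose and other mesenchymal progenitors, and the developmental factors GATA6, DLX5 and PAX9 were also higher in IMF, by 1.40, 1.19, 1.18 and 1.08, with that of GATA6 at 0.90 and not called without day 4. The 7 that lay lower were all under the fold threshold, among them EN1 (BF 2.37 to 6.55 FPKM, IMF 0.838 to 2.55; effect -0.98), LMX1B (effect -0.46) and TBX5, which was listed at 0 in all 12 IMF libraries and reached 0.0591 to 0.810 FPKM in BF. ZIC1, a zinc finger factor of the dorsal embryo, was called lower in IMF (-1.22, SE 0.19) with overlap on at least 1 day and not without day 2 (-0.92).

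Secreted regulators included genes called in each direction. The list counts below stand against 2.11% called higher and 1.30% called lower among all tested genes. For lists of 44 to 52 genes, 1 lower call is near that share and is not read as a result about the list. IGFBP6, which binds insulin-like growth factor II, had 9.43, 12.8 and 17.0 FPKM in BF on day 0 and 1.58, 1.44 and 2.35 on day 4. In IMF it had 86.4, 74.8 and 105 FPKM on day 0 and 70.7, 74.3 and 69.3 on day 4, and its effect of 3.18 (SE 0.22, limma adjusted p = 3.91e-10) kept every library apart. The secreted WNT inhibitors SFRP4, SFRP2 and SFRP5 and the receptor FZD8 were the 4 WNT pathway genes of 45 called higher in IMF, by 2.76, 1.96, 1.75 and 1.83. WNT5A, a ligand of the non-canonical branch, was the 1 called lower, against 4 higher and 2 lower after median ratio scaling and 4 and 3 after quantile normalization. Without BF-2d replicate 3 or any 1 day, 4 or 5 were higher and 2 or 3 lower. It began close, with 1.06, 1.01 and 1.18 FPKM in BF and 0.963, 0.547 and 0.546 in IMF on day 0, and by day 4 held 30.7, 47.4 and 193 in BF against 0.639, 0.932 and 0.917 in IMF. FGF10, a growth factor of adipose and limb mesenchyme (chromosome 16, 28695465 to 28779953), was apart from the start: 3.27, 2.96 and 2.86 FPKM in BF and 0.267, 0.162 and 0.185 in IMF on day 0, then 64.1, 61.2 and 48.8 against 0.514, 0.623 and 0.590 on day 4. IMF rose to 19.6, 22.3 and 14.8 FPKM on day 8, when BF held 63.7, 72.7 and 75.8, and the effect over the days was -3.06 (SE 0.35, limma adjusted p = 6.07e-07). Of 44 BMP and TGF-beta genes, 3 were called higher in IMF and 1 lower, against 3 and 3 after median ratio scaling, 3 and 2 after quantile normalization or without BF-2d replicate 3, 2 and 5 without day 8 and 2 and 4 without day 0. In that list the antagonists CHRD and BMPER were higher in IMF (1.25 and 1.13, the latter 0.72 and not called without day 4) and the antagonist GREM1 lower (-1.60, with overlap). Of 52 axon guidance and cadherin genes, 4 were higher and 1 lower (3 and 2 after either rescaling, 3 and 3 without day 2, 5 and 3 without day 0, 4 and 2 without day 8, 5 and 2 without BF-2d replicate 3), among them the receptor EPHA3 at 2.39 and the guidance cue NTN1 at -1.32.

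Of 33 chemokines and cytokines tested, 8 were called lower in IMF and 1 higher, against 1.30% and 2.11% of all tested genes. The list median was -0.39 against 0.05 over all tested genes. On every day 3 of the 33 lay lower in IMF and 0 higher, against 1.23% and 4.28% of all tested genes. The counts called lower and higher were 3 and 0 without day 4 and 6 and 0 without day 2. They were 7 and 2 without day 8 and 11 and 1 without day 0. CXCL8, the neutrophil chemokine interleukin 8, had 8.44, 7.79 and 10.8 FPKM in BF on day 0 and 0.630, 0.812 and 0.756 in IMF. On day 4 it had 543, 527 and 8229 FPKM in BF, with replicate 3 far above the other two, and 0.894, 0.434 and 1.29 in IMF. On day 8 the levels were 2666, 4991 and 4328 FPKM in BF and 236, 289 and 192 in IMF. CXCL8 had the largest effect of the named genes lower in IMF, at -5.46 (SE 0.66, limma adjusted p = 1.54e-06). IL1A, an upstream cytokine of the same response, had 6.68, 5.47 and 5.63 FPKM in BF and 0.420, 0.428 and 0.415 in IMF on day 0, and 441, 637 and 545 against 79.6, 75.9 and 62.5 on day 8.

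CXCL2, another neutrophil chemokine, was lower in IMF by 3.31 on the log2 scale (effect -3.31, SE 0.36) with day differences of -2.54, -3.43, -4.89 and -2.37, whose dependence on day was not called (adjusted p = 0.066 in the F test of limma). TNFAIP3, the feedback inhibitor of NF-kappa-B known as A20, ranged from 6.80 to 59.8 FPKM in BF (median 17.3) and from 1.08 to 11.8 in IMF (median 1.90), at an effect of -2.40 (SE 0.20). NFKBIA, the inhibitor I-kappa-B alpha, had 47.6, 44.5 and 45.2 FPKM in BF and 22.2, 20.4 and 23.6 in IMF on day 0, and 61.1, 76.4 and 223 against 15.13, 17.99 and 14.87 on day 4. Both inhibitors were therefore lower in IMF on every day, as were CXCL8, IL1A and CXCL2, the 3 genes of the cytokine list that lay lower on each. The median difference of that list was 0 on day 0 and -0.06 on day 2. EREG, IL11 and CXCL14 had larger effects than most persistent genes (-3.88, -3.66 and -3.30) but overlapped on at least 1 day, with day 0 differences of -0.15, -0.10 and -0.94. LIF (-3.39) was apart on each day, lower in IMF on 3 and higher on day 0 (0.25). Calls were lost without day 4 for IL11, LIF and CXCL14 (-2.09, -1.99 and -2.18) and without day 2 for IL11 and CXCL14 (-3.05 and -2.57).

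Of 16 prostaglandin genes, 1 was called higher in IMF and 3 lower (1 and 4 after either rescaling, 1 and 2 without day 4, 1 and 5 without day 0). PTGS2, the inducible cyclooxygenase, was lower in IMF by an effect of -4.08 (SE 0.69): BF had 2.70, 5.05 and 6.87 FPKM on day 0 and 753, 1146 and 4825 on day 4, and IMF had 2.48, 1.73 and 1.75 and then 3.17, 2.46 and 3.16. PLA2G4A, the phospholipase that releases arachidonic acid, was lower by -2.23 and the synthase PTGES by -1.37, the latter with overlap and not called without day 2 (-1.10) or day 4 (-0.88). PTGIS, which makes prostacyclin from the product of PTGS2, was the 1 gene of 16 called higher in IMF, at 8.24 to 37.5 FPKM in BF (median 17.8) and 27.7 to 106 in IMF (median 60.5). Its differences of 1.36, 2.30, 2.11 and 1.60 did not differ between days past the threshold (limma F test, adjusted p = 0.176).

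Adipocyte genes were called lower in IMF in 7 of 29 cases and higher in 0, against 1.30% and 2.11% of all tested genes, while the list median was -0.06 against 0.05 over all tested genes. Apart on every day were 4 members lower in IMF and 2 higher, ACLY and ELOVL6 of fatty acid synthesis (0.76 and 0.64, neither called). CFD, the adipsin of adipocytes and a protease of the complement pathway (chromosome 2, 77509792 to 77511988), was the persistent gene of this list with the largest effect, -2.92 (SE 0.20, limma adjusted p = 2.70e-10). In BF it had 9.98, 10.9 and 11.6 FPKM on day 0 and 267, 237 and 337 on day 8, and in IMF 1.18, 1.17 and 1.68 and then 35.6, 21.1 and 33.5. LPL, the lipase that takes up fatty acids from lipoproteins, began at 1.58, 2.76 and 2.33 FPKM in BF and 1.18, 1.18 and 0.822 in IMF, and by day 4 had 176, 313 and 178 against 6.44, 4.69 and 5.36. AGT and FABP4, the latter a fatty acid carrier, were persistent at effects of -1.77 and -1.05, and FABP4 reached at most 5.996 FPKM in BF and 0.676 in IMF. PPARG, the main transcription factor of adipogenesis, was called lower in IMF (-1.02, SE 0.17, limma adjusted p = 6.55e-05) with overlap on at least 1 day. That call was lost at -0.98 to -0.90 without BF-0d replicate 1 or 3, BF-2d replicate 3 or IMF-0d replicate 2 or 3, and without day 0 (-0.80) or day 2. That of FABP4 was lost without BF-8d replicate 1 (-0.95), day 0 (-0.87) or day 8 (-0.88). PPARG had 0.486 to 5.75 FPKM in BF and 0 to 1.31 in IMF. CEBPA, its partner, did not pass the test (-0.34, SE 0.19, limma adjusted p = 0.163). Of the complement genes, 3 of 17 were higher in IMF, led by C4A (0.109 to 1.86 FPKM in BF, 8.76 to 22.2 in IMF; effect 3.11), and 3 were lower, CFD among them; without day 0 the counts were 5 and 2, and without day 4 or day 2 they were 2 and 2 or 3 and 2.

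Retinoic acid genes were called higher in IMF in 5 of 20 cases and lower in 2, against 4 and 2 after median ratio scaling, 4 and 1 without day 4 and 6 and 1 without day 8. ALDH1A3, which makes retinoic acid, and DHRS3, which limits its precursor, were higher by 2.59 and 2.14 with no overlap on any day, while CYP26B1, which degrades it, was lower by an effect of -1.95, overlapped and lost its call without day 4 (-1.31) or day 8 (-1.37). Stromal progenitor surface markers were called in 11 of 27 cases, 8 higher in IMF and 3 lower, a split that became 5 and 4 after median ratio scaling, 7 and 4 after quantile normalization, 5 and 2 without day 4 and 7 and 1 without day 0. ENG, the co-receptor endoglin, had 14.8 to 30.8 FPKM in BF and 35.4 to 56.4 in IMF, and VCAM1, an adhesion molecule, was lower in IMF by -1.15.

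Cell cycle and DNA replication genes were higher in IMF in nearly all calls. Of 59 tested, 12 were called higher in IMF and 1 lower (CDKN2B, an inhibitor of the cycle), against 11 and 1 after either rescaling and 18 and 1 without day 2, and 27 had all IMF libraries above BF on every day, with 0 below, against 4.28% above and 1.23% below among all tested genes. The list median was 0.70 against 0.05 over all tested genes, and by day it was 0.78, 0.38, 0.77 and 0.77. CDC20, an activator of the anaphase-promoting complex, ranged from 0.703 to 10.3 FPKM in BF (median 4.78) and from 4.93 to 32.1 in IMF (median 15.4), an effect of 1.75 (SE 0.19). MCM3, a subunit of the replicative helicase, had an effect of 1.21 (SE 0.13) with no call of dependence on day (limma F test, adjusted p = 0.203). ANLN, a protein of the contractile ring in dividing cells, had the smallest spread of the 4 differences among the genes eligible for naming: 1.62, 1.52, 1.57 and 1.40 on days 0, 2, 4 and 8. Its level fell in both depots over the culture, from 4.828, 5.407 and 5.001 FPKM to 0.907, 1.12 and 0.917 in BF and from 20.22, 19.51 and 14.04 to 4.07, 4.86 and 3.77 in IMF.

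**Figure D4:**
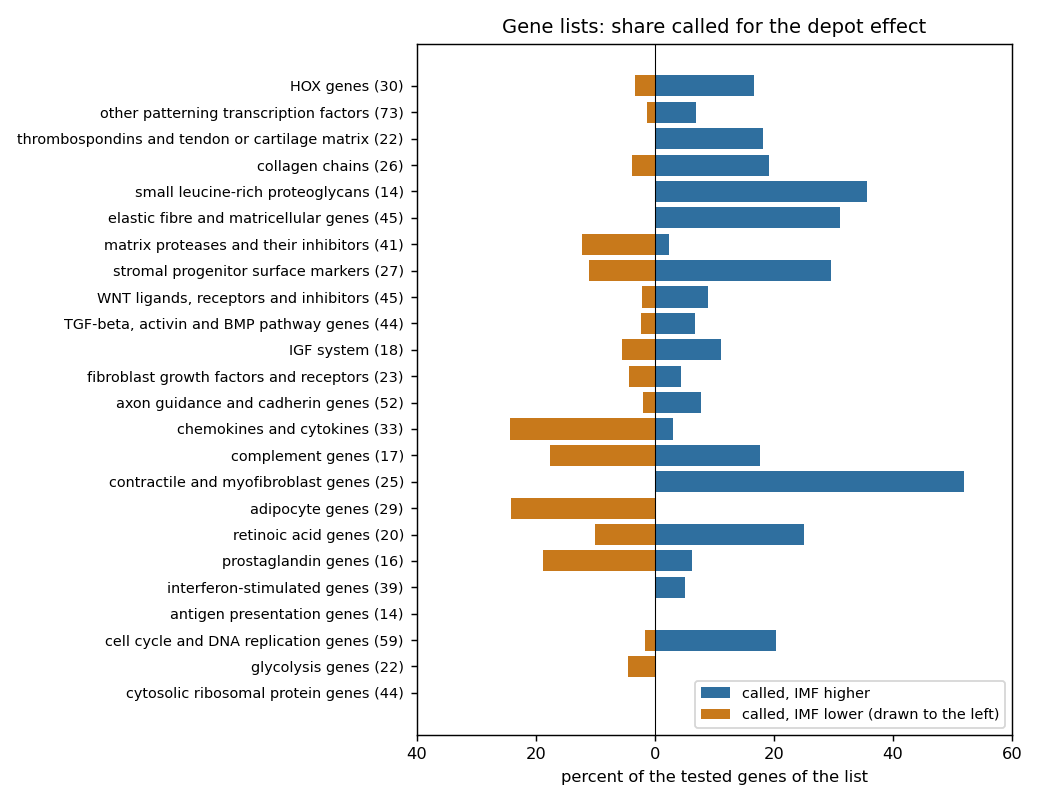
For each gene list of 10 or more tested genes (number in brackets), the bar to the right is the percent called higher in IMF and the bar to the left the percent called lower. Contractile genes reach 52.0% to the right, chemokines and cytokines extend furthest to the left with 8 of 33 genes, and ribosomal protein and antigen presentation genes show no call.

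In most persistent genes the size of the difference varied over the days. The dependence of the depot difference on day was called for 4217 of 16135 tested genes (26.1%, limma F test at adjusted p under 0.01) and for 190 of the 306 persistent genes (62.1%), which left 116 without that call, 90 higher in IMF and 26 lower. A p that misses the threshold does not show an equal difference, so the spread of the 4 differences is given as well: its median was 1.38 in the persistent genes (0.20 to 8.72), 2.57 in the other 245 called genes and 0.60 over all tested genes. ANLN was described above, and DHDDS, an enzyme of dolichol synthesis, was also steady with 0.94, 0.95, 1.24 and 0.93, although its call was lost after either rescaling (0.88 and 0.94), without day 4 (0.94) and without BF-0d replicate 1, BF-2d replicate 2 or BF-4d replicate 3, and S100A6, a calcium-binding protein with 243 to 645 FPKM in BF and 711 to 1334 in IMF, with 0.98, 1.20, 1.38 and 1.13. At the other end, among the genes eligible for naming, PTGS2, CXCL8 and ACTA2 had the largest spreads at 7.765, 6.979 and 6.002.

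Day 4 carried the widest difference in 172 of the 306 persistent genes, against 63 for day 0, 41 for day 8 and 30 for day 2. Over the same genes that count for day 4 was 153 without BF-2d replicate 3, with 51 for day 2, and 160 without BF-4d replicate 3, and it was 153 to 192 with each library left out in turn, counts added after seeing the data. The narrowest difference fell on day 0 in 140 of them. The median absolute difference was 1.02 on day 0, 1.26 on day 2, 1.85 on day 4 and 1.20 on day 8. On each day taken alone, 147, 204, 280 and 193 persistent genes passed both thresholds, and 47 did so on all 4 days, 40 of them higher in IMF. These 47 included THBS4, THBS3, C4A, IGFBP6, MEOX2, HOXA5, HOXA9, HOXA10, NCAM1, TNXB, COL8A1, SYNPO2, CNN1 and PTGIS on the IMF side and CXCL2, FGF10, CFD, LSAMP, TNFAIP3, AHRR and TBC1D2B on the BF side.

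**Figure D5:**
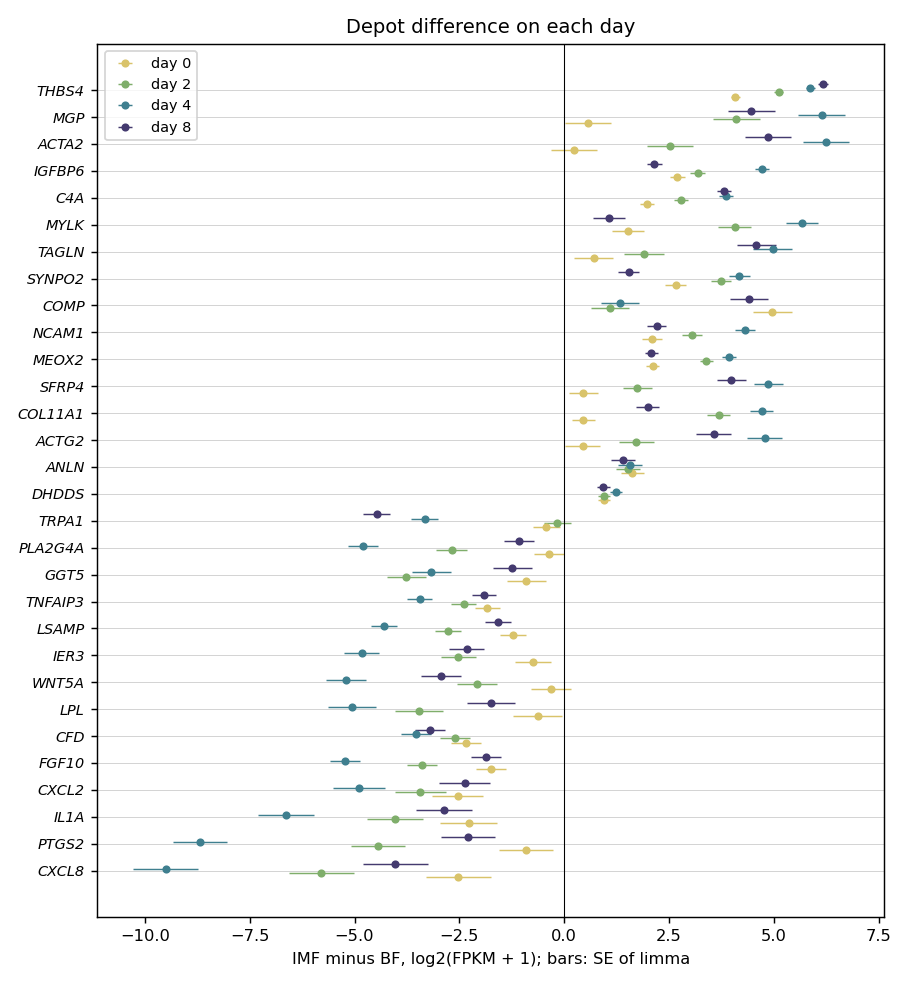
Depot difference (x axis, IMF minus BF in log2(FPKM + 1), with the SE of limma) on days 0, 2, 4 and 8 for the 28 genes with the largest persistent effects and for ANLN and DHDDS. The 4 points of ANLN and DHDDS lie within 0.23 and 0.30 of each other, while those of PTGS2 and CXCL8 spread over 7.77 and 6.98, with day 4 the farthest from 0.

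A stricter description asked for all 12 libraries of a depot to lie above all 12 of the other across days. It held for 108 tested genes higher in IMF (0.669%) and 32 lower (0.198%), of which 57 were also called, 51 higher and 6 lower. The 5 of those 6 with a symbol were ECE1, HOXC4, RIPOR3, ITIH5 and POPDC3, chosen after their values were seen. None of the inflammatory genes was among them, and in CXCL8, CXCL2, IL1A, PTGS2, TNFAIP3 and NFKBIA the IMF libraries of day 8 exceeded the BF libraries of day 0. The depot effect of a persistent gene had a median size of 1.31, while its group means moved over the days by a median of 1.52 in BF and 1.47 in IMF. In 72 of the 306 genes the depot effect was larger than the range over days in both depots.

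The additive fit also passed over a difference that held for 3 days and then turned. Interferon-stimulated genes, which respond to type I interferon, were called higher in IMF in 2 of 39 cases (BST2 and IFI6, both lost without day 0 or day 4, and BST2 without day 2) and lower in 0, and 33 of them had a called dependence on day. Their median difference was 1.72, 1.84 and 2.36 on days 0, 2 and 4 and -1.92 on day 8. With day 8 left out, 33 of the 39 were called higher in IMF and 0 lower, in a fit that called 428 of 15416 tested genes higher. For ISG15, a ubiquitin-like protein of that response, the differences were 4.31, 2.31, 3.36 and -3.29, and BF ranged from 5.76 to 2764 FPKM (median 28.7) against 52.8 to 376 in IMF (median 186). Antigen presentation genes went from 0 called of 14 to 5 of 12 higher in IMF in the same fit without day 8. Cytosolic ribosomal protein genes had 0 calls of 44 and a median of 0.07, and of 22 glycolysis genes only PFKFB3, an activator of glycolysis, was called (-1.42, lost without day 2, 4 or 8), while 4 were called lower without day 0.

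Genes near the fold threshold were GTSE1 (1.0) and PDE3B (-1.0019) just inside it and NAA80 (0.9993) and SEMA7A (-0.9989) just outside. Without the fold threshold 3899 genes (24.2%) passed the adjusted p. Another 583 genes kept the depots apart on every day and were not called, all of them under the fold threshold. The other 245 called genes were 214 with overlap on at least 1 day and 31 that were apart on all 4 days but not in 1 direction. Of the 245, 186 were apart on 3 days in their direction, 57 on 2 and 2 on 1, and 44 called genes were apart in the other direction on some day.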

How the data were processed

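Polyadenylated RNA of 24 libraries was sequenced by the authors as paired reads, aligned with HISAT2 to Sscrofa11.1 and assembled and quantified with StringTie 1.3.4d. Of the 25462 genes, 21271 have an Ensembl ID and 4191 were assembled by the authors. Among the called genes, 37 were assembled by the authors. The values deposited are FPKM, 1 per gene and library, already scaled for gene length and library size, and hold no read counts, so the depth behind a value is not known from them. The authors called genes with DESeq2 1.6.3, a count tool that could not be applied to these values; the same thresholds were applied here.

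Libraries were grouped by the depot and day in the labels. Values were tested as log2(FPKM + 1), which understates changes of low genes, after a filter of over 1 FPKM summed over libraries, with limma 3.58.1 in R 4.3.3 (eBayes with trend and robust) and Benjamini-Hochberg adjustment. The depot effect came from an additive model of depot and day, and dependence on day from an F test over 3 interaction contrasts among 8 group means. Symbols were matched for 14815 Ensembl IDs. Sequences and positions are from RefSeq on Sscrofa11.1, matched by symbol, for 95 of 99 named genes. Members and gene lists were chosen with earlier results of these data known. Only genes with a symbol were eligible for naming. Named were the 14 largest persistent effects per side with at least 1 FPKM and the 3 largest per side with overlap on at least 1 day. Up to 4 called genes per list, the 3 smallest and 3 largest spreads, adipocyte markers and genes nearest the threshold were also named. Other genes were named after their values were seen. Some named items are not reported here. The script was tested on simulated data. Alternatives covered the pseudocount, filter, scaling, each library and day left out, group means, blocks and moderation.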

Additional observations from a re-analysis of the deposited data

Results flagged for a closer look

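The depot difference varied between days, by the F test of limma at an adjusted p under 0.01, for 4217 of the tested genes and for 32 of the 40 genes named for the size or steadiness of their effect or as adipocyte markers. For these 32 genes the widest minus the narrowest of the 4 day differences in log2(FPKM + 1) is given. Among matrix and secreted genes higher in IMF it was THBS4 2.09, MGP 5.57, COMP 3.87, COL11A1 4.26, MFAP5 4.19, ECM2 5.22, IGFBP6 2.57, SFRP4 4.41 and C4A 1.87. Among contractile, surface and other genes higher in IMF it was ACTA2 6.002, MYLK 4.61, TAGLN 4.26, SYNPO2 2.64, ACTG2 4.35, NCAM1 2.21, MEOX2 1.85 and ISG12(A) 4.70. Among cytokine and signalling genes lower in IMF it was CXCL8 6.98, IL1A 4.35, IL11 8.27, CXCL14 6.57, EREG 7.45, FGF10 3.48, WNT5A 4.88 and IER3 4.08. Among enzymes, channels and other genes lower in IMF it was PTGS2 7.77, PLA2G4A 4.43, LPL 4.43, GGT5 2.85, LSAMP 3.08 and TRPA1 4.30. For CEBPA, which was not called for the depot effect in either direction, it was 2.02. Another 50 of the 59 other named genes also varied between days. In COMP the difference was narrowest on day 2, whereas in CXCL8, PTGS2 and FGF10 it was widest on day 4. No group of 3 or of 12 libraries was screened for single outlying values.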

How the results depend on the processing

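Direction and side of the threshold were kept in 3668 of 3859 single-gene values under the alternatives; 157 fell short of it, 33 newly passed and 1 turned, CEBPA at 0.0228 without day 2. The number of called genes was 1404 with a pseudocount of 0.1, 326 without day 4 and 3899 on the adjusted p alone. Genes called for dependence of the depot difference on day numbered 2028 without day 0 and 1965 without day 8. Genes apart on every day numbered 1606, 1706 and 1392 without day 0, 2 or 8 (fewer days to satisfy) and 140 when all 12 libraries had to lie apart, a description added after seeing the data. Leaving out each library in turn gave 481 to 626 called genes, 897 to 1132 genes apart, 3455 to 5010 genes with dependence on day and 90 to 97 named genes called; the highest counts other than that of named genes came without BF-2d replicate 3. Without that library and BF-8d, added after seeing the data, 802 genes were called. ASPN fell short in 25 of 39 settings, STC1 in 16, and FGF18 and GTSE1 in 15 each. The number of all called genes on rescaled values is given with the main count.

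Whether libraries of the same replicate number came from the same piglet is not stated in the labels, and correlations between so few libraries cannot settle it. Of 84 same-number pairs, 9 deviated together at over 0.1 (-0.454 to 0.457). Among the 12 such pairs of the same day and different depots, 3 did so (-0.0704 to 0.192). The best correlation was with the own number in 10 of 24 libraries, a hint from the data only. With the replicate block 545 genes were called for depot, 94 named genes among them, and 3901 for dependence of the depot difference on day. FPKM values hold no counts, so the counting error of low levels such as those of HOXA10 is not known from them, and 3 libraries per group and day limit the precision of each day's difference.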

Other observations

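Of the 10857 tested genes with a RefSeq position, 258 were persistent genes (2.38%). The share was highest on chromosome 18, which holds the HOXA cluster, with 10 of 220 (4.55%), followed by chromosome 16 with 9 of 208 (4.33%) and chromosome 4 with 19 of 599 (3.17%). It was lowest on chromosome Y with 0 of 3, chromosome 15 with 6 of 451 (1.33%) and chromosome X with 5 of 347 (1.44%). These shares are a description without a test.

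LCN2, a siderophore-binding protein of the acute phase response often grouped with inflammatory genes, ran opposite to CXCL8, CXCL2 and IL1A. It was higher in IMF in all 12 libraries against all 12, with mean levels of 59.5 FPKM in BF and 196 in IMF and differences of 1.41, 0.76, 2.59 and 3.90 on days 0, 2, 4 and 8. It was singled out after its values were seen.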
